A study of Papaver somniferum with 12 samples.

Results

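The unigenes described here are either clearly present or nearly absent in every leaf library, and their state differs between libraries of the same growth phase. A unigene is a sequence obtained by clustering long reads. Each unigene here has its own locus number, and the paper counts transcript forms (isoforms) apart from unigenes. A library was called on for a unigene at 5 RPKM or more and off at 0.5 RPKM or less. RPKM is a read number corrected for unigene length and for the mapped reads of a library. A unigene was a member when all 12 libraries were on or off, both states occurred, and both occurred among the 3 libraries of at least 1 phase. This gave 87 of 61856 unigenes, or 0.141%. The members were thus selected on the deposited RPKM of all 12 libraries, so their levels and states are a description and carry no test.

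The study followed leaves of opium poppy (Papaver somniferum), the plant grown for its benzylisoquinoline alkaloids, through its growth. The groups were leaves of seedlings, of plants at jointing, when the stem extends, at bolting, when the bud appears, and at florescence, the time of bloom, with 3 libraries each. All of them came from B1, the original cultivar of the study, and were grown in its experimental plot, and no treatment is named. The samples of a phase are described as independent, but no source used here says whether a library holds 1 plant or several, so p-values measure only the spread between these libraries. A library is named here by its phase and replicate number, and no source used here says that a number marks a shared plant or batch across phases.

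A gene can give rise to several splice forms, and the opium poppy genome also holds many near-identical duplicated genes. Short reads that match several such sequences have to be divided between them by estimation, so the value of a unigene with near-identical relatives is uncertain. The table pairs no identifier with a gene name, and 0 of its identifiers occur in the RefSeq gene table of assembly ASM357369v1. Functions, positions, sequences and leaf markers were therefore not analysed here, and members are given by identifier.

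The on/off pattern was rare among unigenes that varied strongly. Of 20241 unigenes with at least 5 RPKM in some library, 1056 also had 0.5 RPKM or less in some library. Only 95 of these 1056 had no value between the thresholds. In 8 of the 95 each phase was uniform, and in the other 87 at least 1 phase held both states. By comparison, 10890 unigenes had at least 5 RPKM in every library and 18043 had at most 0.5 RPKM in every library.

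The off state was close to absence. Of the 521 off values of the members 330 were exactly 0, or 63.3%, and 27 members were at 0 in every off library. Among the other 60 members the lowest on value was 11.4 to 1157 times the highest off value, with a median of 131 times. The median RPKM over the on libraries ran from 5.05 to 93.8 among members, with a median of 14.5, and 10 members reached at least 50 RPKM. In bulk leaf tissue fewer cells of a type and less RNA per cell cannot be told apart. The table gives no read numbers, so the counting error of an off value cannot be given here.

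Some unigenes lay next to the thresholds. Just inside, PB.15591.2 had 5.05 RPKM in florescence 2 and 0.02 to 0.15 RPKM in the other libraries, and PB.10102.6 had 5.07 RPKM in seedling 2, its lowest on value, and 0.03 RPKM in florescence 3. Just outside, PB.61230.1 missed the rule through 4.93 RPKM in bolting 3, and PB.61610.1 through 0.51 RPKM in jointing 1. With the on threshold at 10 RPKM 38 members were left, and with 2 RPKM there were 282.

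**Figure D1:**
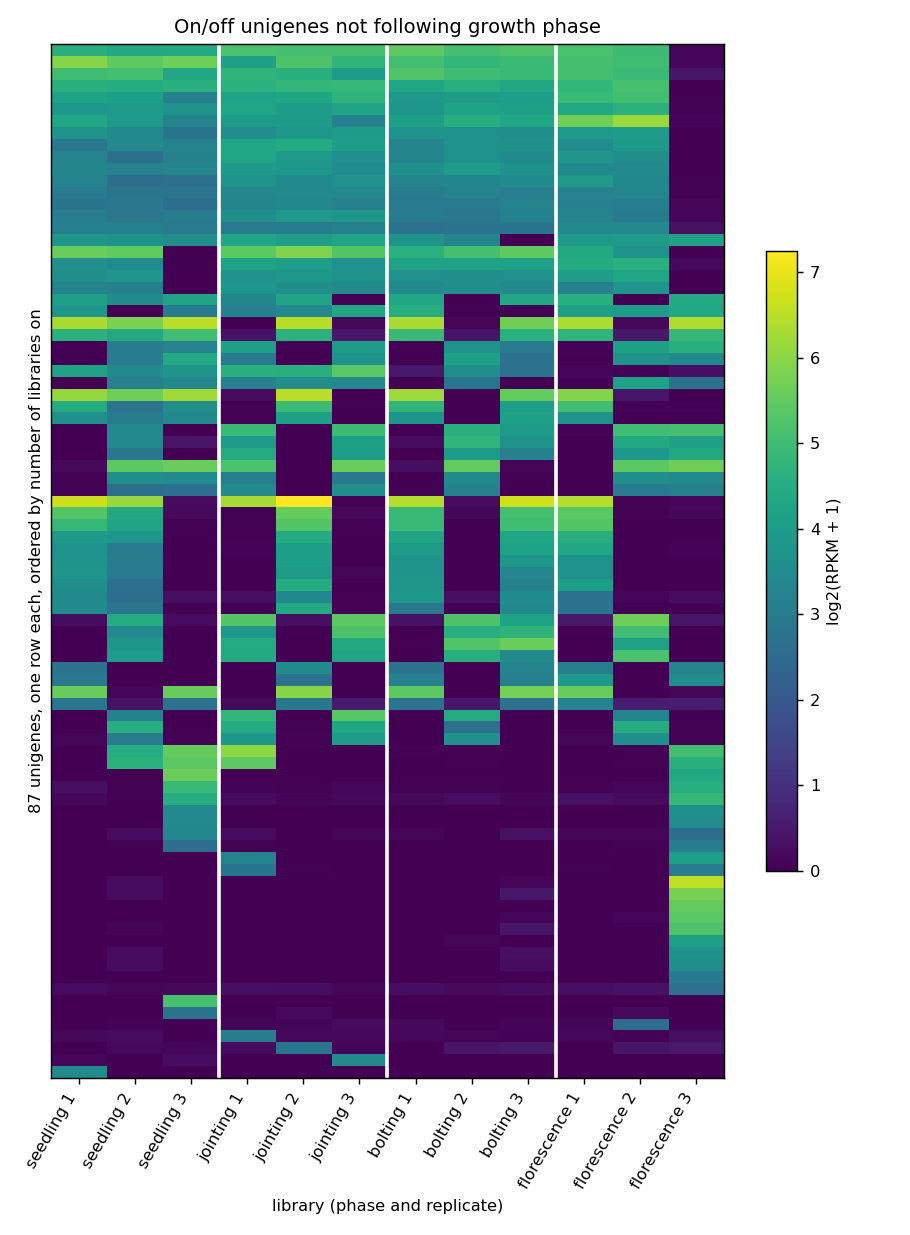
Level of the 87 on/off unigenes (rows) in the 12 libraries (columns), as log2(RPKM + 1), with rows ordered by the number of libraries that are on and white lines between phases. Dark cells are off. Blocks of rows share a pattern, and florescence 3 is the only dark column in 16 rows and the only bright one in 10.

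Both states occurred in a phase for 47 members in seedling leaves, 42 in jointing leaves, 39 in bolting leaves and 78 in florescence leaves. In 29 members all 4 phases were mixed, in 9 members 3 phases, in 14 members 2 phases and in 35 members 1 phase. The number of members on in a library lay between 37 in florescence 3 and 56 in seedling 2. A library could also be the odd one of its phase, with a state that the other 2 libraries did not share. Florescence 3 was the odd library for 41 members, on in 21 and off in 20. Jointing 2 was the odd library for 34 members, bolting 2 for 27, florescence 1 for 24 and seedling 3 for 23. Bolting 3 was the odd library for 1 member and jointing 3 for 3.

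Many members shared their pattern. The 87 members showed 28 patterns, and 76 of them had a pattern that another member also showed. The most frequent pattern, in 16 members, was on in all libraries but florescence 3. The next, in 10 members, was its mirror image, on in florescence 3 alone. In 9 members seedling 1, seedling 2, jointing 2, bolting 1, bolting 3 and florescence 1 were on and the other 6 libraries were off. In 7 members seedling 3 and florescence 3 were on and all others off, and 4 members showed the mirror image of that pattern.

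The members off in florescence 3 alone were otherwise expressed in every leaf library. PB.31285.3 had 0.08 RPKM in florescence 3, against 34.7 and 30.3 RPKM in florescence 1 and 2. It had 22.5, 19.8 and 20.5 RPKM in seedling leaves, 34.9, 33.9 and 33.7 in jointing leaves, and 42.8, 33.6 and 37.2 in bolting leaves. The rule leaves a gap between on and off values, so their distance here is a description only. PB.57929.2 had 0.09 RPKM in florescence 3 and between 16.7 and 60.2 RPKM in the other 11 libraries. PB.31489.1 had 0.33 RPKM there and 14.7 to 37.6 RPKM elsewhere, and PB.22802.2 had 0 RPKM there and 18.2 to 34.6 RPKM elsewhere. PB.59401.1, chosen after its values were seen, was the only member off in a single other library, with 0 RPKM in bolting 3 and 8.86 to 18.1 RPKM elsewhere.

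Among the 10 members on in florescence 3 alone the level there ran from 5.7 to 93.8 RPKM, with a median of 26.45. The highest of them, PB.60225.1, also had the highest median on level of all members, which for it is 1 value. PB.60225.1 had 93.8 RPKM in florescence 3, 0.19 in seedling 2, 0.09 in bolting 3 and 0 in the other 9 libraries. PB.60308.1 had 53.0 RPKM in florescence 3, 0.19 in seedling 2, 0.39 in bolting 3 and 0 elsewhere. PB.60825.1 had 44.3 RPKM in florescence 3 and 0 in all others. PB.59627.2 had 40.9 RPKM there and at most 0.09 RPKM elsewhere. In these named members the few traces above 0 fell mainly in seedling 2 and bolting 3. This did not hold for all 10. PB.23479.1, chosen after its values were seen, had 5.7 RPKM in florescence 3 and 0.08 to 0.28 RPKM in all other libraries. Another 7 members were on in 1 library only, 2 in seedling 3 and 1 each in seedling 1, jointing 1, jointing 2, jointing 3 and florescence 2.

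Florescence 3 therefore set apart 26 of the 87 members on its own. Without this library the same rule gave 64 members, 61 of them among the 87. In the whole table florescence 3 did not stand far from its phase. Its Pearson correlation across tested unigenes on log2(RPKM + 1) was 0.961 with florescence 1 and 0.965 with florescence 2, and these 2 libraries correlated at 0.966. Its summed RPKM of 998634 was the lowest of the 12 libraries, which reached up to 1175897. The part of this difference in the states was not tested.

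Seedling 3 and florescence 3, the first and the last phase, shared further states in some members. PB.42866.1, chosen after its values were seen, had 21.5 RPKM in seedling 3 and 27.7 RPKM in florescence 3, and 0.02 to 0.25 RPKM in the other 10 libraries. PB.41823.1, chosen likewise, had 0 RPKM in both of these libraries and 12.3 to 56.7 RPKM in the other 10. The pair was thus on for PB.42866.1 where it was off for PB.41823.1. PB.34672.1 and PB.43210.1, also chosen after their values were seen, were on in seedling 2, seedling 3, jointing 1 and florescence 3. PB.34672.1 had 21.3, 45.3, 64.2 and 31.96 RPKM there, while its highest value in the other 8 was 0.06 RPKM. Over all members seedling 3 and florescence 3 had the same state in 46 of 87, the highest number for florescence 3 with any library. It was also the lowest number for seedling 3, which shared its state with the other libraries in 47 to 54 members. The 26 members set apart by florescence 3 alone lower the number of florescence 3 with every library.

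**Figure D2:**
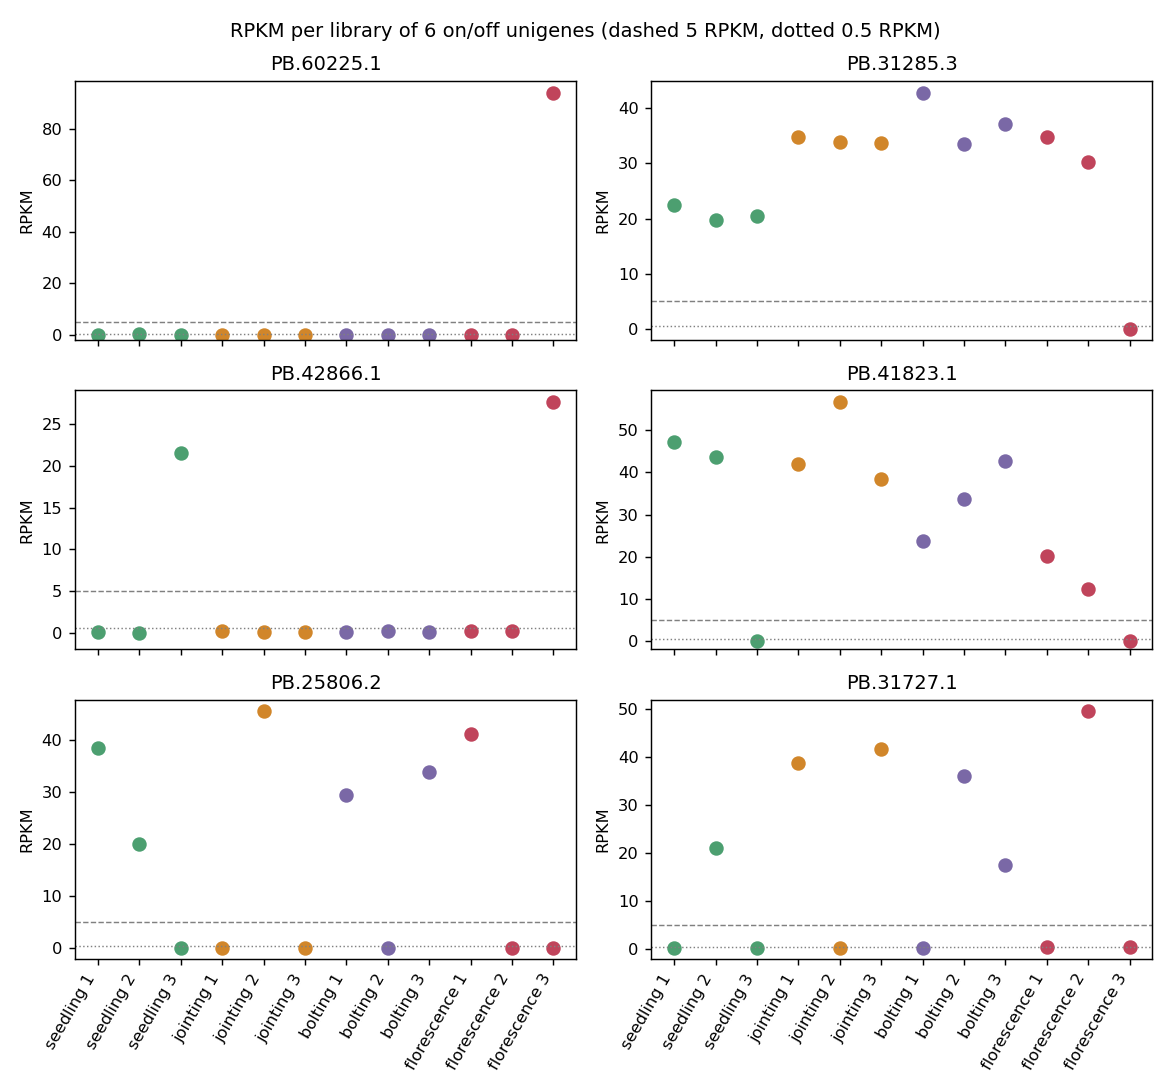
RPKM in each of the 12 libraries, coloured by phase, for 6 on/off unigenes, with a dashed line at 5 RPKM and a dotted line at 0.5 RPKM. The upper and the middle row each show a pair with mirrored states, and in the lower row PB.25806.2 and PB.31727.1 are opposite in all libraries but seedling 2, seedling 3, bolting 3 and florescence 3.

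Mirrored states between unigenes of the same locus could not occur. The identifier gives a locus number and an isoform number, and all 61856 unigenes of the table carry different locus numbers, so 0 pairs of members share a locus. The isoform number was 1 for 59 of the 87 members, or 67.8%, and for 70.6% of all unigenes. Sequences of the same locus were thus not quantified side by side in this table. Mirrored states were sought between loci instead, a choice made after this was seen. Of 3741 pairs of members 188 pairs, or 5.03%, were opposite in all 12 libraries, and 253 pairs, or 6.76%, had the same pattern. The 188 pairs came from the mirrored patterns described above, which 37 members hold, and each of them is set apart by florescence 3 alone or with seedling 3. Without florescence 3 the rule gave 62 mirrored pairs, and without seedling 3 it gave 636.

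A second structure cut across all phases. Seedling 1, jointing 2, bolting 1 and florescence 1 tended to share a state. The same held among jointing 1, jointing 3, bolting 2 and florescence 2. The states of these sets were opposite in part of the members only. In 33 of 87 members, or 37.9%, all 4 libraries of one of these sets were on and all 4 of the other were off. The first set was on in 18 of these members and the second in 15. These sets of libraries were read from the states themselves, so they are not groups of the study and carry no test. A further 27 unigenes showed the same division of the 8 libraries and were not members. They were 2.79% of the 969 unigenes that reached both states and were not members. All 27 had a value between the thresholds in some other library, since without one the rule would have made them members.

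Bolting 1 and florescence 1 were in the same state for all 87 members. Seedling 1 shared its state with each of them in 85 members and with jointing 2 in 84. In the second set jointing 3 and bolting 2 shared a state in 85 members, and florescence 2 did so with each of them in 84. Jointing 1 shared its state with jointing 3 and with bolting 2 in 79 members and with florescence 2 in 78. Between a library of the first set and one of the second, 47 to 50 members were in the same state and only 37 to 40 in opposite states. The shared states inside these sets thus joined libraries of different phases, and in the second set also jointing 1 and jointing 3. Because the rule asks for both states within a phase, it lowers the number of shared states there, and the 2 ranges that follow are not compared. Within a phase 22 to 79 members were in the same state, with a median of 50.5 over 12 pairs of libraries, and between phases 20 to 87 members, with a median of 53 over 54 pairs.

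**Figure D3:**
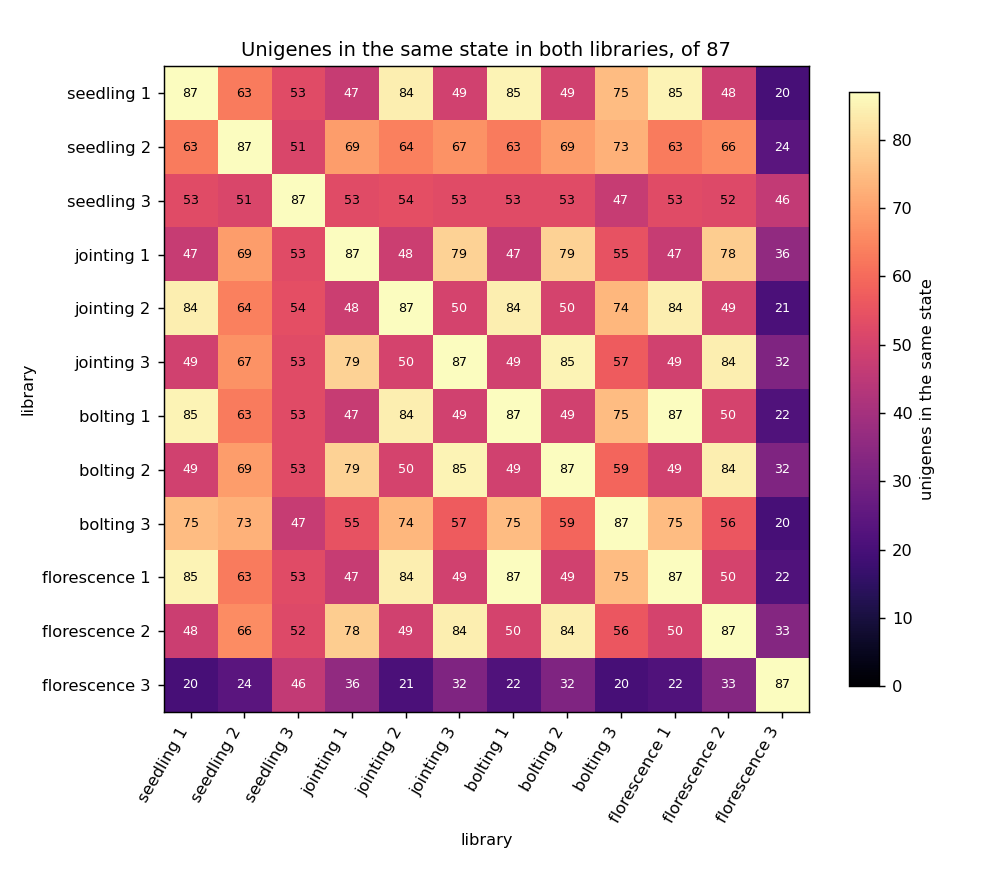
Number of the 87 on/off unigenes in the same state in each pair of the 12 libraries, in the order of the phases on both axes. The bright cells off the diagonal, at 78 to 87, join libraries of different phases and jointing 1 with jointing 3, and the row of florescence 3 is the darkest, at 20 to 46.

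Several highly expressed members followed this division. PB.60466.1 had 78.9, 53.97 and 89.5 RPKM in seedling leaves, 0, 87.6 and 0.11 in jointing leaves, 79.6, 0.09 and 50.1 in bolting leaves, and 80.4, 0.11 and 83.1 in florescence leaves. The libraries that were off were jointing 1, jointing 3, bolting 2 and florescence 2. PB.61275.1 had 67.2, 49.0 and 73.7 RPKM in seedling leaves, 0.16, 89.7 and 0 in jointing leaves, 71.6, 0 and 45.3 in bolting leaves, and 59.3, 0.34 and 0 in florescence leaves. It differed from PB.60466.1 only in florescence 3, which was off. PB.60337.1 was on in seedling 1 and 3, jointing 2, bolting 1 and 3 and florescence 1, at 42.3 to 61.9 RPKM, while the other 6 libraries did not exceed 0.10 RPKM. PB.36573.1 showed the opposite division. It had 35.7 to 49.8 RPKM in seedling 2 and 3, jointing 1 and 3, bolting 2 and florescence 2 and 3, against 0 to 0.21 RPKM in seedling 1, jointing 2, bolting 1 and 3 and florescence 1.

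PB.327.7 departed from the division in jointing 1. It had 103, 68.5 and 0.17 RPKM in seedling leaves, 78.5, 151 and 0.04 in jointing leaves, 84.3, 0.16 and 105 in bolting leaves, and 83.9, 0.02 and 0.10 in florescence leaves. The value of 151 RPKM in jointing 2 was the highest of any member.

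The other 4 libraries took either state among the 33 members with this division. Seedling 2 was on in 14 of the 18 members on in the first set and in all 15 on in the second. Bolting 3 was on in all 18 and in 9 of the 15. Seedling 3 was on in 7 of the 18 and in 5 of the 15, and florescence 3 in 4 of the 18 and in 8 of the 15. Seedling 2 was thus on with either set, and 4 members were the exception.

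Where seedling 2 was on together with the first set, its level was mostly in the lower part of the on range. Relative to the median of a member over its on libraries, seedling 2 had a median ratio of 0.585, and it was below 1 in 14 of 14 members. In 3 of the 14, PB.60466.1, PB.61275.1 and PB.39723.1, another on library was still lower, bolting 3 in PB.60466.1 and PB.61275.1 and florescence 1 in PB.39723.1, which was named after its values were seen. With the second set its median ratio was 0.639, below 1 in 13 of 15 members. PB.25806.2, chosen after its values were seen, shows this with 19.9 RPKM in seedling 2, against 38.3, 45.4, 29.4, 33.8 and 41.0 RPKM in seedling 1, jointing 2, bolting 1, bolting 3 and florescence 1. PB.31727.1, chosen likewise, had 21.0 RPKM in seedling 2 and 17.5 RPKM in bolting 3, and 36.2 to 49.6 RPKM in jointing 1, jointing 3, bolting 2 and florescence 2. In both unigenes seedling 2 thus lay between the off libraries and the libraries of the set that was on.

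Bolting 3 had lower values together with the second set. Its median ratio to the median on level was 0.523 over the 9 members on in it and in the second set, with 7 of 9 below 1, and 0.996 over the 18 members on in the first set. Set directly against bolting 2, the bolting 3 level had a median ratio of 0.548 in these 9 members, against 0.999 in 13235 other unigenes with at least 5 RPKM in both libraries. Seedling 2 over seedling 1 had a median ratio of 0.576 in the 14 members on in both and in the first set, 0.905 in the 17 members off in 1 library only, and 0.964 in 12716 other unigenes. The other unigenes of the same libraries thus had median ratios close to 1. In the 17 members off in 1 library only, seedling 3 was lower still, with a median ratio of 0.855 to seedling 1 and of 0.716 to the median on level, below 1 in 15 of 17. Because a member must reach 5 RPKM to be on, lower values of this kind were left out by the rule, and in 24 of the 27 other unigenes with the division seedling 2 lay between the thresholds.

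**Figure D4:**
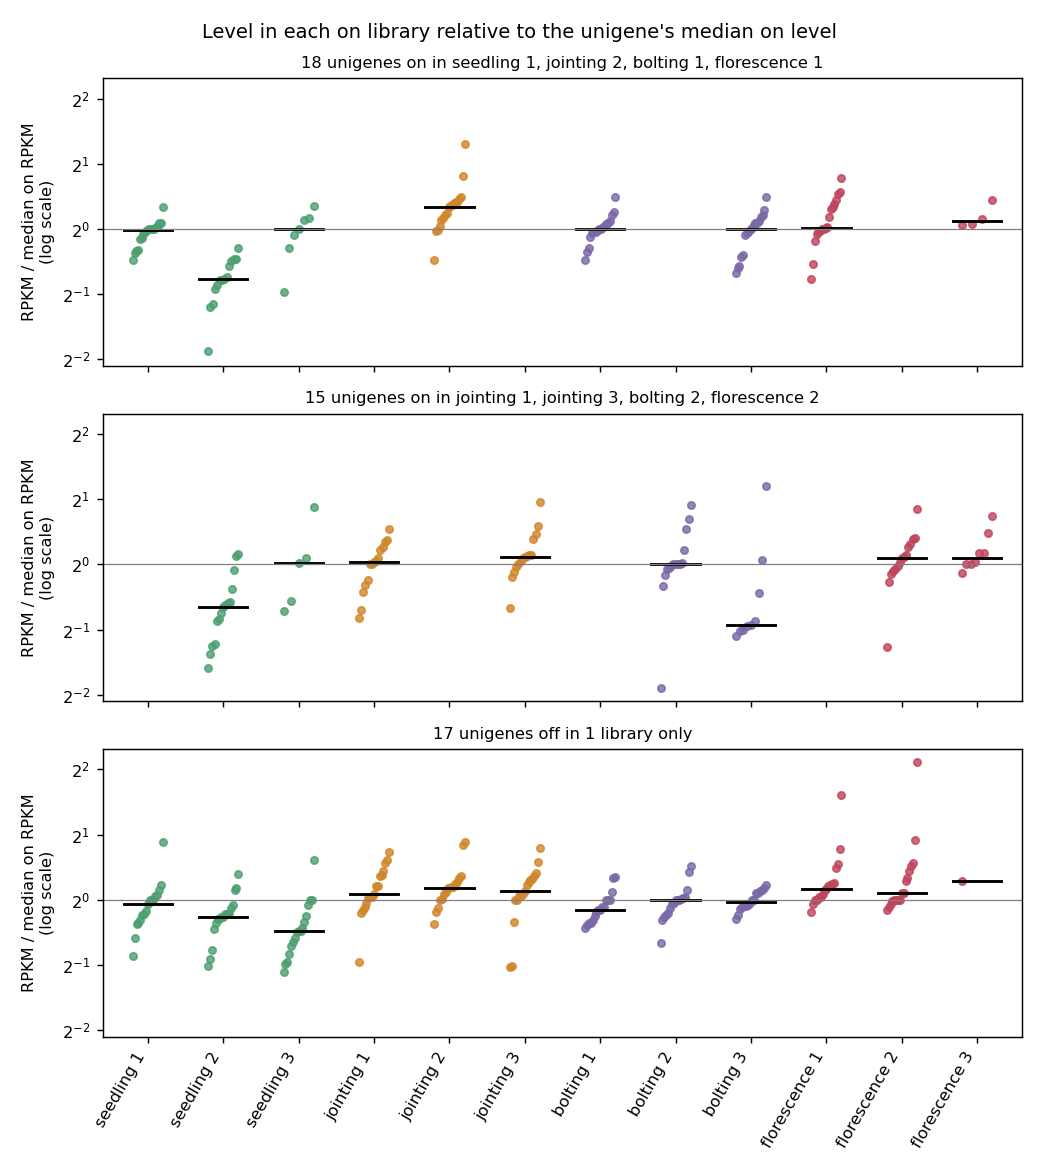
RPKM in each on library divided by the median RPKM of the same unigene over its on libraries, on a log2 axis, for the 18 and 15 members that divide 8 libraries and the 17 members off in 1 library only. Points are unigenes, coloured by phase, and black bars are medians. Seedling 2 has medians of 0.585 and 0.639 for the members that divide the libraries and 0.832 for those off in 1 library, where seedling 3 has 0.716, and bolting 3 has 0.996, 0.523 and 0.981.

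Levels also varied within the on state. Over the 70 members on in at least 2 libraries the highest on value was 1.07 to 8.67 times the lowest, with a median of 2.23 times. Over the 10890 unigenes with at least 5 RPKM in every library this ratio had a median of 2.10. Members are on in fewer libraries than those unigenes, so the ratios are not compared by a test.

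The values of unigenes outside the rule showed these relations between libraries in part. For 31163 other unigenes that averaged 1 RPKM or more, the deviation of each library from its phase mean on log2(RPKM + 1) was correlated between libraries of different phases. Deviations within a phase sum to 0, so pairs are not independent and no test was made. For jointing 2 the Pearson correlation across unigenes was 0.50 with bolting 1, 0.49 with florescence 1 and 0.23 with seedling 1, and -0.59 with bolting 2 and -0.44 with florescence 2. Jointing 3 correlated at 0.46 with bolting 2 and 0.27 with florescence 2, and at -0.49 with bolting 1. In the 11 pairs of libraries from different phases that belong to the same set, the correlation was above 0 in 11 of 11, from 0.06 to 0.50. In the 12 pairs with 1 library of each set it was below 0 in 10, from -0.59 to 0.09. Median-of-ratios scaling of the libraries gave 0.07 to 0.50 and -0.58 to 0.09. The other 31 pairs ran from -0.20 to 0.28 and overlapped the pairs inside the sets. Seedling 2 and jointing 1 had the highest of them, and seedling 3 and florescence 3 correlated at 0.24. Bolting 3 shared its state with seedling 1 and florescence 1 in 75 members each and with jointing 2 in 74, but its correlation was only 0.12 with seedling 1, 0.03 with florescence 1 and 0.04 with jointing 2.

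**Figure D5:**
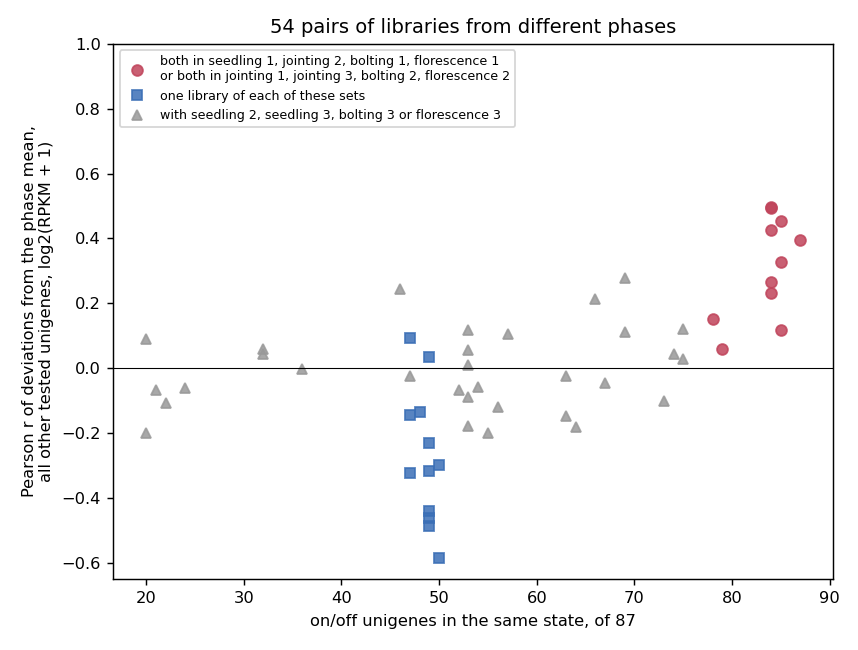
Each point is 1 of the 54 pairs of libraries from different phases, with the number of the 87 on/off unigenes in the same state on the x axis and the Pearson correlation of deviations from the phase mean across all other tested unigenes, on log2(RPKM + 1), on the y axis. The 11 pairs inside the sets lie at 78 to 87 unigenes and at correlations of 0.06 to 0.50, the 12 pairs across the sets at 47 to 50 unigenes and from -0.59 to 0.09, and the other 31 pairs at 20 to 75 unigenes and from -0.20 to 0.28.

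The comparison of the 4 phases was made with a moderated F test of limma over all unigenes that averaged 1 RPKM or more. A unigene was called when the Benjamini-Hochberg adjusted p was below 0.05 and 2 phase means lay 1 or more apart on log2(RPKM + 1). Of 31242 unigenes tested, 18.3% were called. Of the 87 members 78 passed the filter, and 1 of these was called. Since the rule asks for mixed states within a phase, nothing is read from this low count or from the spreads that follow. The residual standard deviation within phases had a median of 1.80 among the 78 members and of 0.19 among all tested unigenes, on the same log2 scale. The largest difference between phase means had a median of 1.56 among these members and 0.65 among all tested.

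The called member was PB.44540.4, which is named because of its values. It had 16.9, 10.01 and 12.6 RPKM in seedling leaves, 23.3, 22.7 and 41.5 in jointing leaves, 0.41, 11.3 and 5.49 in bolting leaves, and 0.10, 0.05 and 0.24 in florescence leaves. The mixed phase was bolting, with bolting 1 off. The phase means differed by up to 4.69 on log2(RPKM + 1), and no p is given, because the same values made it a member. Florescence leaves were off in all 3 libraries, while seedling and jointing leaves were on in all of theirs. The rule itself keeps on and off values apart. Without bolting replicate 1 the same test called 3 of 79 members, against 17.9% of all tested unigenes. Without florescence replicate 1 it called 2 of 79 against 19.5%, and without florescence replicate 3 it called 4 of 65 against 17.4%. As above, nothing is read from these low counts.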

How the data were processed

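Leaf RNA of 12 libraries was sequenced by the authors as paired Illumina reads. The authors built the reference from pooled PacBio long reads (ICE, Arrow, LoRDEC, CD-HIT), and mapped cleaned short reads to it. The submitters' processing notes name HISAT2 2.05 and RSEM. The deposited values are RPKM with at most 2 decimals. The paper's methods speak of fragments instead of reads, and no normalization between libraries is stated. RPKM removes depth but not composition. Reads shared by near-identical sequences are divided by estimation.

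Libraries were assigned to phases by their titles and to columns by the library code in their descriptions, with 0 columns left unmatched. States used thresholds of 0.5 and 5 RPKM on the values as deposited. The phase comparison used limma 3.58.1 (R 4.3.3) with phase as the only factor, on log2(RPKM + 1) and with the trend option. Benjamini-Hochberg adjustment covered all unigenes that averaged 1 RPKM or more. The count test of the study was not applied, since the table holds no counts. Both steps were tested on simulated data.

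Unigenes were named as those with the 8 highest median on levels, up to 4 of the most frequent pattern, 4 on and 4 off in 1 library, and those next to the thresholds. Any other is marked in the text as picked later. The members and rules were chosen with earlier results of these data known. The summed RPKM of the rest of a locus could not be tested, because each locus number has 1 unigene. Alternatives were other thresholds, 2 scalings, another pseudocount, no filter, no minimum difference, a replicate block and each library left out.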

Additional observations from a re-analysis of the deposited data

How the results depend on the processing

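The 87 members became 38 with the on threshold at 10 RPKM and 282 at 2 RPKM. The off threshold gave 59 members at 0.1 RPKM and 116 at 1 RPKM. Median-of-ratios scaling gave 93 members, 80 of them among the 87, and equal totals 85, with 83 among the 87. With a library left out the count ran from 64 (without florescence replicate 3) to 107 (without seedling replicate 2). The 33 members that divide 8 libraries became 12 with the on threshold at 10 RPKM and 98 at 2 RPKM, and lay between 33 and 48 when single libraries were left out. Leaving out a library asks for states in fewer libraries, so this count could not fall below 33. The 188 mirrored pairs from different loci became 68 with the off threshold at 0.1 RPKM, 326 at 1 RPKM, 52 with the on threshold at 10 RPKM, 1601 at 2 RPKM, and 443 when 11 of 12 opposite states sufficed. They ran from 62 (without florescence replicate 3) to 636 (without seedling replicate 3), with 391 without bolting replicate 3, 317 without jointing replicate 1 and 285 without seedling replicate 2. The cause was not tested. The division of 8 libraries and the pairs from different loci, with all their alternatives, were chosen after seeing the data. Mirrored pairs of the same locus numbered 0 in every alternative, because no locus number occurs more than once. Leaving out locus PB.734 changed none of these counts. The 1 member called in the phase comparison lay between 1 and 4 when single libraries were left out. Of all tested unigenes 16.1% to 20.1% were called in these fits. The member count stayed 1 with pseudocount 0.1, without a filter, with median-of-ratios scaling and without a minimum difference. Of all tested unigenes 29.2%, 10.1%, 15.3% and 69.1% were called there, in this order. The rule keeps the member count low, so nothing is read from its staying at 1. With the replicate block 1 member was called, and 5711 unigenes were called in all, against 5703 without the block. The replicate numbers were not taken to pair the libraries, since the deviations of same-numbered libraries correlated above 0.1 in 7 of 18 pairs. All 7 were among the 9 pairs without jointing, so numbers 1 and 2 went together over seedling, bolting and florescence, while pairs with jointing ran from -0.626 to 0.077. The paper lists clean bases and RNA quality for each library, which were not used here. Without read numbers for each unigene the precision of an off value cannot be given.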
